A study of Caenorhabditis elegans with 2 samples.

Results

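Of the 1464 nuclear peaks in the optimal list of a DAF-16 chromatin immunoprecipitation, 370 lay between genes and far from any transcript start. These are the peaks whose summit was outside every protein-coding gene body, more than 500 bp from the nearest protein-coding transcript start, and more than 100 bp from any transfer, small nucleolar or small nuclear RNA gene. They made up 25.3% of the nuclear list, with an exact (Clopper-Pearson) 95% interval from 23.1% to 27.6%. The rule used position alone, so ranks and sequence at the summits were not used to choose them. Chromatin came from whole hermaphrodite L4 larvae of the Caenorhabditis elegans strain ZM8745, taken 54 hours after synchronization as starved L1 larvae, and was precipitated with an antibody to GFP. All animals carried the daf-16 allele mu86, the daf-2 allele e1370 and the insertion hpSi15, in which the ges-1 promoter drives GFP::daf-16a in the intestine. The labels also describe a C-terminal GFP-FLAG tag, so the tagged end is not settled. The 2 samples were biological replicates of this 1 group. Chromatin without the tag and input chromatin were not analysed here.

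DAF-16 is the FOXO transcription factor of the worm. Insulin-like signalling through DAF-2 keeps it phosphorylated and out of the nucleus, and with reduced DAF-2 activity it enters nuclei and raises genes of stress resistance and metabolism. FOXO factors bind the DAF-16 binding element, TGTTTAC or TATTTAC. Promoters of DAF-16 targets also hold the DAF-16 associated element, TGATAAG, which contains the core TGATAA of GATA factor sites. Long intergenic stretches are known to hold enhancers, unannotated RNA genes and, on the X chromosome, recruitment elements on X (rex sites), where the dosage compensation complex loads in hermaphrodites. A known motif of rex sites has the core GCGCAGGG.

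Sequences of the members on which the results turn were read from the WBcel235 assembly of RefSeq, which is ce11. Printed first are the 11 members with GCGCAGGG within 50 bp of the summit, because 7 of the 20 highest-signal members were among them. Each line gives the flanking genes and 15 bases to each side of the core, which is in capitals. The letters were searched on both strands and were chosen after the sequences of the highest members on X had been seen.
W04G3.11 and W02H3.3, chrX:11094211-11094248, minus strand: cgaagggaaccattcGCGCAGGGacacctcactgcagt
C34D10.1 and xol-1, chrX:8036420-8036457, plus strand: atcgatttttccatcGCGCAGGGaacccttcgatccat
gtr-1 and F25E2.2, chrX:806659-806696, plus strand: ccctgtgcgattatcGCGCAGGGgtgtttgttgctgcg
nspc-17 and nspc-18, chrX:14525885-14525922, minus strand: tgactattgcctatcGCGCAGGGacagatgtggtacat
F20B6.9 and hpk-1, chrX:4209251-4209288, minus strand: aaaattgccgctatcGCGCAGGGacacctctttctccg
F22H10.2 and F22H10.11, chrX:16682157-16682194, minus strand: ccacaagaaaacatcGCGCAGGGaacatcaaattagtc
ins-39 and F56C3.3, chrX:1345041-1345078, plus strand: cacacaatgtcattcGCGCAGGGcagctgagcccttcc
lgc-40 and T24D8.6, chrX:2364884-2364921, minus strand: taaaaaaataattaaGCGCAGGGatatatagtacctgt
WBGene00020828 and T26C11.4, chrX:1837877-1837914, plus strand: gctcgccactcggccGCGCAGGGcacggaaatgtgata
dpy-23 and D1079.1, chrX:4395600-4395637, plus strand: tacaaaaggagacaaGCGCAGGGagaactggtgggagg
clec-85 and Y54G2A.16, chrIV:2855553-2855590, minus strand: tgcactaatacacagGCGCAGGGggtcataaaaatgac

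Members with the listed DAF-16, GATA and E-box elements are shown next, to give the sites counted further on. Each stretch reads 5′ to 3′ on the strand named, with the element in capitals. GACGCAG and GAGAGAG came from an earlier search of all 7-mers at the same peaks.
TGATAAG, F16G10.6 and F16G10.7, chrII:2378727-2378763, minus strand: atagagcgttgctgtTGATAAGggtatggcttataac
TGATAAG, ztf-14 and M163.1, chrX:14500823-14500859, plus strand: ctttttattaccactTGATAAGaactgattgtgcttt
TGATAAG, cpt-1 and Y46G5A.18, chrII:12798962-12798998, minus strand: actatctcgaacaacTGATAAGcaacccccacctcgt
TGATAAG, syx-16 and ZC155.4, chrIII:5211495-5211531, minus strand: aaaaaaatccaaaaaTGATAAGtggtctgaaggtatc
TGTTTAC, fbxa-30 and fbxa-37, chrIII:1279341-1279377, plus strand: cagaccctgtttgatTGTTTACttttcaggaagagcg
TGTTTAC, taap-1 and gbh-2, chrII:8484717-8484753, plus strand: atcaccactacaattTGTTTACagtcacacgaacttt
CACGTG, F22B7.9 and dpy-19, chrIII:8658426-8658461, plus strand: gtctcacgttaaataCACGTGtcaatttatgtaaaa
CACGTG, T27E4.7 and hsp-16.1, chrV:9080109-9080144, plus strand: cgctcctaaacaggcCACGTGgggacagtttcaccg
GACGCAG, W06H8.6 and K08B12.3, chrV:6227724-6227760, plus strand: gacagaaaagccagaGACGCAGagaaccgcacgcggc
GAGAGAG, gtl-2 and F54D1.6, chrIV:11284336-11284372, plus strand: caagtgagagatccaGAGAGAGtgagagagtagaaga

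The whole window, from 50 bp before the summit to 50 bp after it, is given for the highest member of all, for the member upstream of xol-1, and for the one member with both TGATAAG and TGTTTAC. Capitals mark TGATAAG and GACGCAG in the F16G10.6 window, GCGCAGGG in the xol-1 window and TGATAAG and TGTTTAC in the hda-5 window, each on either strand. In the xol-1 window the core was present on both strands.
F16G10.6 and F16G10.7, chrII:2378658-2378758, plus strand: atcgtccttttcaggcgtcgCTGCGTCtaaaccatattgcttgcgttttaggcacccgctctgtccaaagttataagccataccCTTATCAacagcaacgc
C34D10.1 and xol-1, chrX:8036395-8036495, plus strand: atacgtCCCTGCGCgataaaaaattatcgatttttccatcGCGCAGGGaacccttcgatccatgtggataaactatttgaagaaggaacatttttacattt
F43G6.4 and hda-5, chrII:11797325-11797425, plus strand: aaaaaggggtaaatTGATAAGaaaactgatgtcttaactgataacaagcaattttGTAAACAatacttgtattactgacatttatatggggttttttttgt

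Far intergenic peaks spanned almost the whole range of the list. Signal is the authors' value per peak, whose scale is not stated, and rank 1 is the highest nuclear signal. The members ran from 84.3 to 474 with a median of 111, and their median rank was 845.5 of 1464. Intergenic peaks within 500 bp of a start, called close peaks here, numbered 312 and had a median rank of 858.5. Ranks 1 to 732 held 156 members (42.2%), and 5 members were in the top 20, 14 in the top 50 and 25 in the top 100. In the pooled list, which goes on below the optimal threshold, entries meeting the same rule were 20.6% of ranks 1 to 500, 28.4% of ranks 1001 to 1464 and 24.2% of ranks 20001 to 29975. Close entries went from 15.4% through 27.4% to 8.16% over the same ranks. Most members (330) were 420 bp wide.

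The flanking genes were described next, as distances and orientation. The median distance to the nearest start was 1779 bp, with quartiles at 964.5 and 2924 bp and a highest value of 13445 bp. There were 100 members between 500 and 1000 bp, 105 from there to 2000 bp, 128 to 5000 bp, 28 to 10000 bp and 9 beyond. The median signal in these 5 bins was 109.8, 113, 112, 116 and 103, with no steady trend over distance. A single flanking start faced 214 members, both flanking starts faced 27.3%, and 55 (14.9%) lay between 2 gene ends. Among close peaks both starts faced 179 of 312, and since the rule used distance this is a description only. The intergenic gaps holding members had a median length of 4289.5 bp over members.

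**Figure D1:**
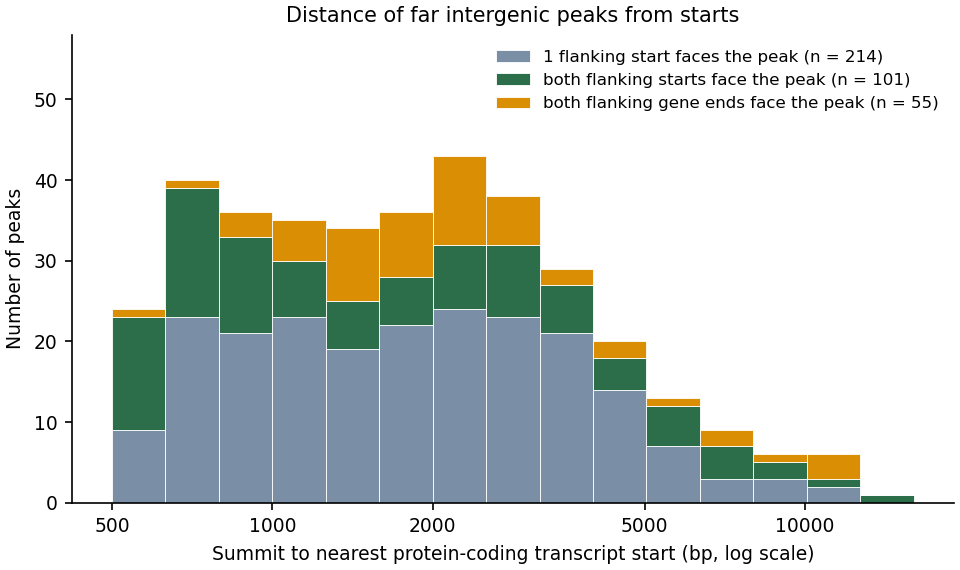
Number of far intergenic peaks by distance in bp from the summit to the nearest protein-coding transcript start, on a log axis, stacked by how the flanking genes are turned. The peaks faced by both flanking starts (27.3%) and the 55 between gene ends spread over most of the range from 501 to 13445 bp.

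The members lay in 323 different gaps and touched 632 flanking genes. In 44 gaps there was more than 1 member, and 3 gaps held 3 members each. Some members of a gap overlap, as by syx-16 and by acs-6, and need not be separate sites. Each was kept as its own entry in all counts and tests. The first was the 22871 bp gap between asp-13, an aspartyl protease gene, and ZC190.4 on chromosome V, with signals up to 272. The second was the 12050 bp gap between ftt-2 and F52D10.4 on X, with signals up to 189, and the third the 17966 bp gap between irld-55 and Y37A1B.7 on IV, with signals up to 103. The farthest member from any start lay between irld-18 and dmd-6, a DM domain gene, at chrIV:14594274-14594693. Its signal was 200.8, and it ranked 180 in replicate 1 and 157 in replicate 2.

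The space meeting the rule covered 29.7 Mb, or 29.7% of the nuclear genome, so members had a density of 12.4 per Mb. Close space had 41.4 peaks per Mb over 7.54 Mb. Among chromosomes the far density was 17.2 per Mb on III, 15.7 on X, 14.0 on II, 11 on I, 10.4 on IV and 8.05 on V. The X chromosome held 104 members, 28.1% of the total on 22.3% of the far space. Chromosome X came after III in both classes, with 56.2 close peaks per Mb against 64.9 on III.

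**Figure D2:**
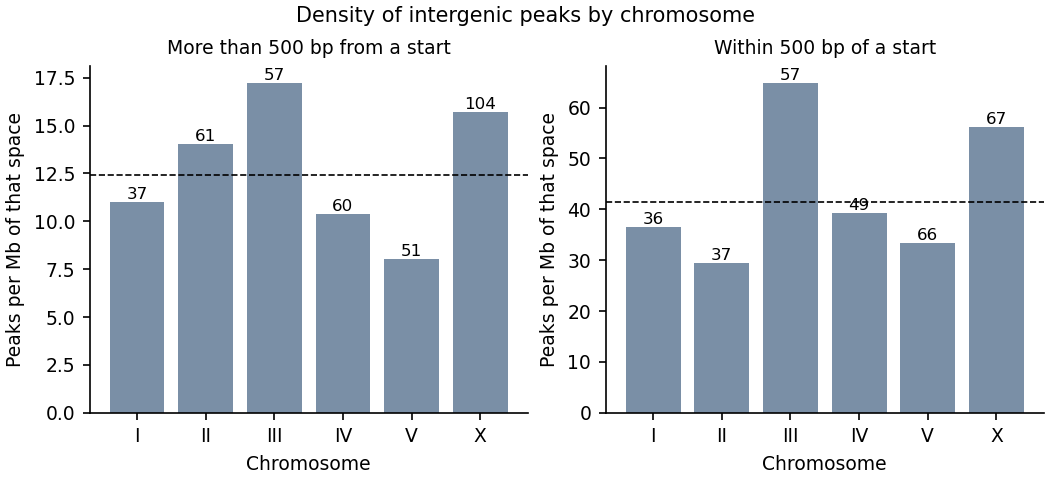
Intergenic peaks per Mb of the space that meets each rule, by chromosome, with the number of peaks above each bar and the value over all chromosomes as a dashed line. Chromosomes III and X are above the dashed line in both panels, and V is lowest for far peaks with 8.05 per Mb.

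The highest members were mostly on X. Of the 25 members in the nuclear top 100, 15 were on X, and of the 20 highest members 13 were. The median signal of X members was 120, against 109 for the 266 autosomal members, and the lowest signals were 85.0 and 84.3. The highest member of all was autosomal. It lay 857 bp from the start of F16G10.6 on chromosome II, at chrII:2378480-2378917, with a signal of 474 and nuclear rank 2. It ranked 2 in replicate 1, with a signal of 261 there, and 4 in replicate 2, with 216. A second member of signal 127 lay in the same gap, with its summit 1066 bp from the nearest start. Its replicate ranks were also 2 and 4, so both members rest on the same replicate entries.

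Of the other autosomal ones among the 20 highest members, F19B2.5 on V had a start 599 bp from a summit of signal 370.4. That summit ranked 8 and 15 in replicates 1 and 2. The summit between F22B7.9 and dpy-19, which encodes a C-mannosyltransferase, had 361 and ranks of 18 and 9. It lay 1385 bp from the dpy-19 end and held the E-box printed above. The member between the F-box genes fbxa-30 and fbxa-37 had 281 and ranked 63 and 50, and it was the one of the 20 with TGTTTAC. The member upstream of sup-26, an RNA-binding protein gene, had 257 and ranked 67 in both replicates.

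On X, the member between ZK899.6 and gap-2, which encodes a Ras GTPase-activating protein, had the highest signal, 429. It ranked 14 in replicate 1 and 3 in replicate 2, and lay 2538 bp from the nearest start. The W02H3.3 member followed with 359 and ranks of 6 and 31, and the bcat-1 member with 321 and ranks of 23 and 24. That bcat-1 summit, 5016 bp from the start of this branched-chain aminotransferase gene, held a run of GAGAGAG. The xol-1 member, with 314, ranked 34 and 27. It lay 4868 bp before the start of xol-1, the switch gene of sex determination. A transfer, small nucleolar or small nuclear RNA gene was 240 bp from its summit. In both replicates these 4 members were within the top 50.

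Other high members on X had signals close to these. The adm-2 member, by the gene of a membrane metalloprotease, had 317 and ranked 47 and 11. Those of gtr-1, nspc-17 and hpk-1 had 313, 312 and 308, and each ranked between 25 and 43 in both replicates. The dot-1.4 member, by a gene related to histone methyltransferases, had 306 and ranked 71 and 13. The F22H10.2 member had 299 and ranked 38 in both. None of these held TGATAAG. Of the 20 highest members, 14 held none of the 9 listed motifs.

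The core GCGCAGGG was present at 10 of 104 X members, 9.62% with an interval from 4.71% to 17%. It was at 1 of 266 autosomal members, the clec-85 peak on IV, and at 0 of 67 close peaks on X, which allows a share of up to 5.36%. None of 245 close autosomal peaks had it. Over windows of the same length tiled across all far space the share was 0.0472% on X and 0.0253% on autosomes. The 10 X members with the core had a median signal of 303, the other X members one of 115.3. This contrast and those with autosomal members and close peaks are in part built in, because the letters were chosen from the highest X members. The intervals do not allow for that choice. All 7 holders among the 20 highest members were on X, at nuclear ranks from 14 to 45. The lgc-40, WBGene00020828 and dpy-23 holders ranked 265, 347 and 972. Of the 11 holders, 6 lay between gene ends. With 1 base free, as GCGNAGGG, the counts were 15 of 104 on X and 2 of 266 on autosomes, against 0.230% and 0.180% of tiled windows. At close peaks this looser form was at 1 of 67 on X (1.49%) and 2 of 245 on autosomes (0.816%, beside 0.752% of far autosomal members). The gap-2 and dot-1.4 members were among the 15. Because the letters were chosen from these peaks, no test was made. Without an untagged library, the part of the tagged protein in these signals was not tested.

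**Figure D3:**
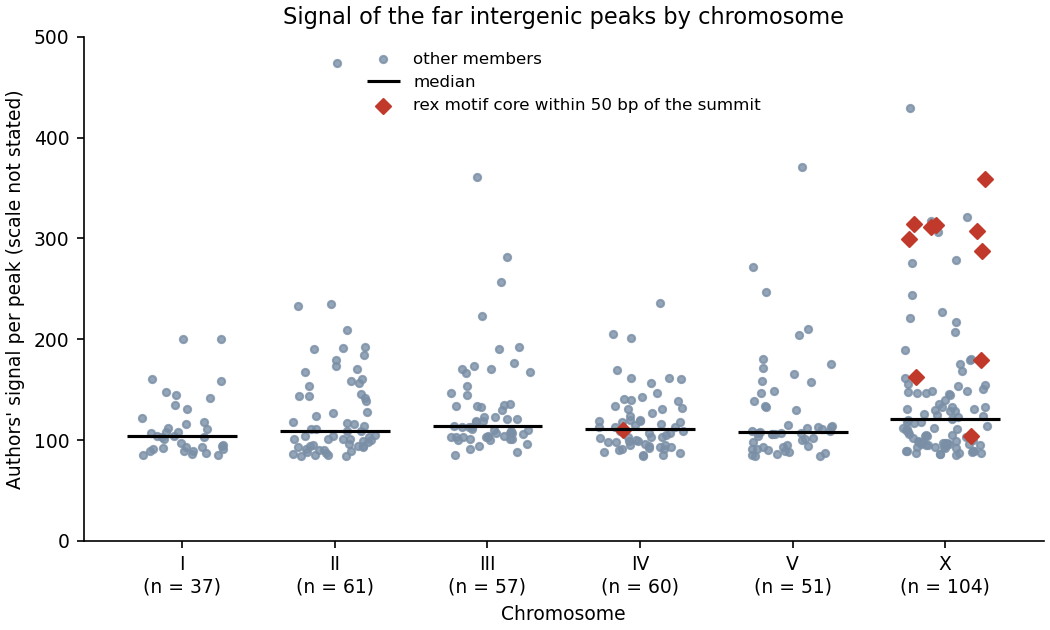
Authors' signal of each of the 370 far intergenic peaks by chromosome, with black lines at the medians and red diamonds for the 11 peaks with GCGCAGGG within 50 bp of the summit. The 7 diamonds between 288 and 359 are all on X, and the 1 autosomal diamond, on IV, has a signal of 109.

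The listed elements were then counted at the summits, with overlapping members kept as separate entries. Each summit window, reaching 50 bp to each side, was set against the window centred 500 bp towards higher coordinates by the exact McNemar test, two-sided, with Benjamini-Hochberg adjustment over 9 motifs searched on both strands. TGATAAG was at 47 members, 12.7% with an interval from 9.48% to 16.5%, and at 5 flanks (1.35%). The difference was 46 members with it at the summit alone against 4 at the flank alone (exact McNemar test, adjusted p = 4.02e-09). Tiled far windows had it in 1.65%. The shorter TGATAA, which every TGATAAG contains, was at 105 summits and 42 flanks (adjusted exact p = 3.59e-08). The nearest TGATAAG within 100 bp lay at a median of 42 bp from the summit, over 82 members. Its nearest copy was 26 to 50 bp from the summit at 29 members and within 25 bp at 20.

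The forkhead form TGTTTAC was at 14 summits, 3.78% with an interval from 2.08% to 6.27%, and at 5 flanks. This difference of 2.43 points did not pass (exact McNemar test, adjusted p = 0.0841). It was 2.97 points and passed against the flank towards lower coordinates (3 flanks, adjusted exact p = 0.0191) and the one 1000 bp away (adjusted exact p = 0.0229). It was smaller and did not pass without replicate 2 (1.45 points, adjusted exact p = 0.498), in the higher 732 entries (1.28, 0.817) and with windows reaching 25 bp (1.08, 0.498). TATTTAC was at 6 summits and 10 flanks (adjusted exact p = 0.511). Together TGATAAG or TGTTTAC was at 60 of 370 members, and both were at the hda-5 member alone, which had a signal of 93.4 and ranks of 730 and 4273. The E-box CACGTG, a site of basic helix-loop-helix factors, was at 24 summits and 6 flanks (adjusted exact p = 0.00164). That difference of 4.86 points lost its call against flanks 1000 bp away (3.24 points, adjusted exact p = 0.0864) and among the higher 732 entries alone, where it was 4.49 points over 156 members (adjusted exact p = 0.118). GAGAGAG was at 45 summits and 6 flanks and GACGCAG at 35 and 5, but both had been picked on the same peaks. None of the 9 was at 176 members.

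**Figure D4:**
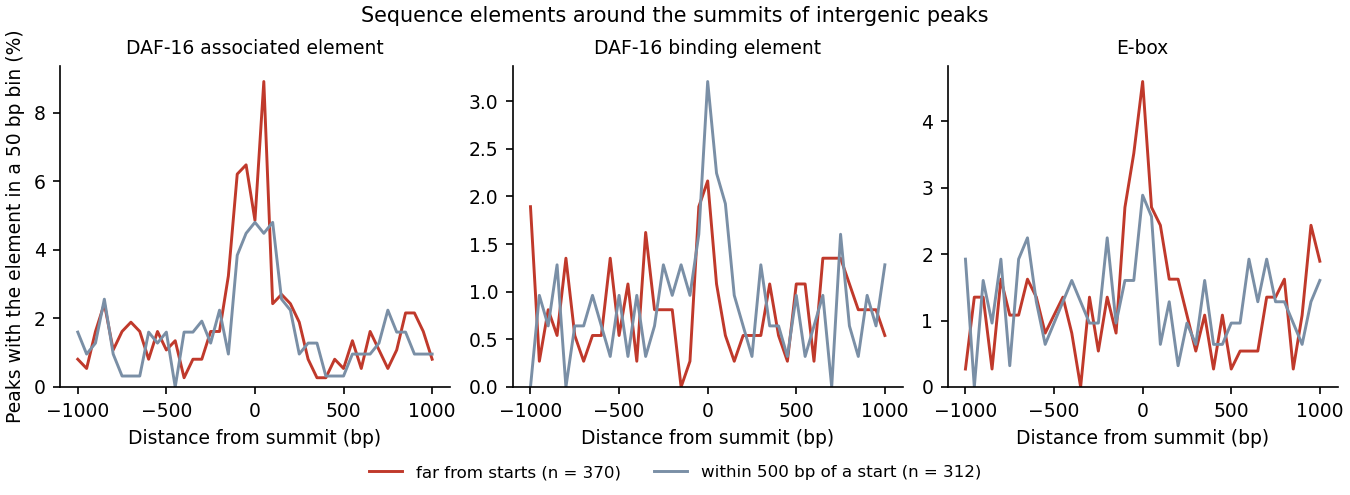
Percent of far intergenic peaks and of close peaks with each element in 50 bp bins, by distance in bp from the summit. The DAF-16 associated element rises to 8.92% of far peaks in the bin centred 50 bp from the summit and stays at or below 2.43% in all bins 300 bp or more away, and the panels have different vertical scales.

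Far peaks were compared with close peaks by Fisher's exact test, two-sided and adjusted over the 9 motifs. TGATAA was at 28.4% of far and 17.6% of close summits (adjusted exact p = 0.00961). The difference of 10.8 points lost its call at nearly the same size with a limit of 250 bp (9.54 points, adjusted exact p = 0.0710) and without replicate 2 (9.36, 0.0527). It was smaller with windows reaching 25 bp (4.27 points, adjusted exact p = 0.709) and without replicate 1 (6.07, 0.334). For TGATAAG the shares were 12.7% and 9.62% (adjusted exact p = 0.508), and with windows reaching 100 bp the difference passed (adjusted exact p = 0.0142). TGTTTAC was at 3.78% and 4.81% (adjusted exact p = 0.797). No other motif of the 9 passed in the main windows, where GGTTCGA, the B box of transfer RNA genes, was at 9 far and 1 close summits (adjusted exact p = 0.113). With windows reaching 100 bp, CACGTG and GGTTCGA (both adjusted exact p = 0.0438) passed as well, each more frequent at far peaks. Both were 0.0425 when GACGCAG and GAGAGAG, picked on the same peaks, were left out of the adjustment, a choice made after seeing the data. No call in the main windows of the 3 motif comparisons changed under that adjustment.

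The same position rule was used in a second comparison, with the 6561 far entries of the pooled list that overlap no optimal entry. Within that rule, distance to a start, chromosome and base composition were not matched. TGATAAG was 3.69 times as frequent at members, 12.7% against 3.44% (Fisher's exact test, adjusted p = 9.73e-13). TGTTTAC was 2.92 times as frequent, at 1.30% of the lower entries (adjusted exact p = 0.00107), and CACGTG was at 1.68% of them (adjusted exact p = 2.21e-07). TATTTAC, at 2.71% of the lower entries and 1.62% of members, did not pass (adjusted exact p = 0.276). Signal differs between these groups by construction.

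TGATAAG members were spread over ranks. The 47 had a median signal of 119, against 110.5 for the other members, and 25 were in nuclear ranks 1 to 732. By chromosome they ran from 14 of 61 members on II (23.0%) to 3 of 37 on I (8.11%), with 9 of 104 on X (8.65%). After F16G10.6, the highest was that between ztf-14 and M163.1 on X with 243, then cpt-1 on II with 233, tent-5 on I with 200.4 and syx-16 on III with 171. The cpt-1 summit, 2495 bp from the start of this carnitine palmitoyltransferase gene, also held GACGCAG and GAGAGAG, and ranked 138 and 83 in the replicates. Summits were richer in G and C than their surroundings, with medians of 43.6% at the summit and 33.7% and 32.7% at the flanks. The part of base composition in the motif counts was not tested.

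Recovery in the single replicates followed rank. The optimal list was thresholded from these replicate lists, so this gradient is no independent measure of reproducibility. Both replicates held 237 members among their 1489 highest-signal entries, 64.1% with an interval from 58.9% to 68.9%, beside 68.8% of all nuclear optimal entries. Close peaks had 192 of 312, 61.5% (Fisher's exact test, two-sided, p = 0.525). An overlap of any length counted here, so neighbouring members can be recovered through the same replicate entry. With an overlap of at least 0.5 of the peak, the shares were 61.1% of members and 61.2% of close peaks. In nuclear ranks 1 to 488, 100 of 100 members were recovered, in ranks 489 to 976 it was 99 of 127, and in ranks 977 to 1464 it was 38 of 143 (26.6%). Replicate 1 alone held 57 of the rest, replicate 2 alone 62 and neither 14. An entry at any rank was found in both replicates for 369 members. Ranks in the replicates had a Spearman rho of 0.479 over these 369 peaks, which are not independent replicates and were selected through both lists.

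Among the 369 members ranked in both replicates, the 5 whose ranks differed most had signals from 86.1 to 111. The remaining member, on X with a signal of 99.4, ranked 721 in replicate 1 and had no entry in replicate 2. The nipi-3 member on X, at signal 89.6, ranked 666 in replicate 1 and 14832 in replicate 2. The rab-37 member ranked 596 and 14088, the cdc-48.1 member 531 and 10288 and the lin-59 member 280 and 9473. In the other direction, the tax-6 member ranked 5393 in replicate 1 and 404 in replicate 2. A member's rank in a replicate is that of the highest entry overlapping it, so neighbours can share one.

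**Figure D5:**
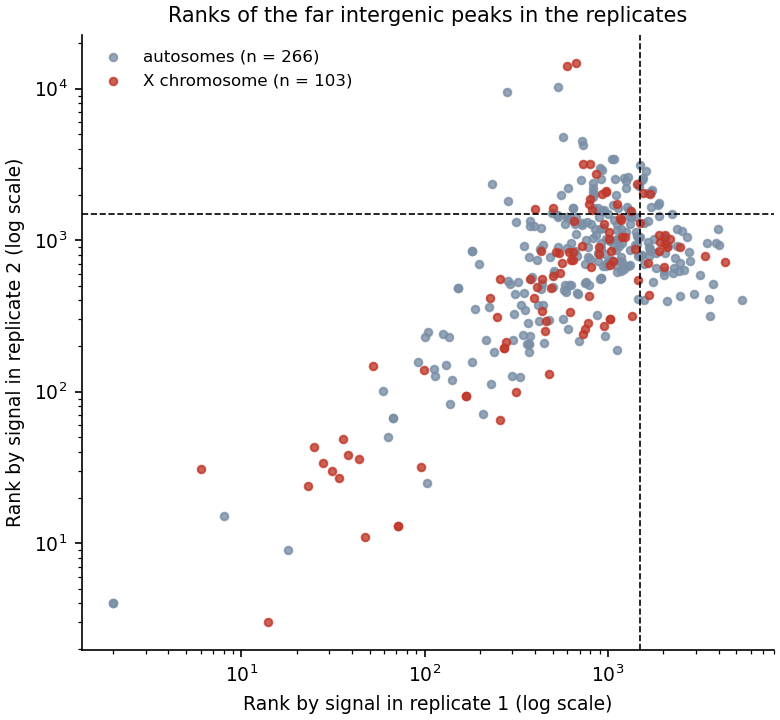
Rank by signal of the 369 members with an entry in both replicates, on log axes, with dashed lines at rank 1489 and X members in red. The highest members ranked high in both replicates, and ranks reach 5393 in replicate 1 and 14832 in replicate 2.

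Genes of the insulin pathway stood beside 7 members. They belong to 4 of the 17 genes listed, ftt-2, daf-16, pptr-1 and pdk-1, which are 0.633% of the flanking genes where the list is 0.0856% of all protein-coding genes. Of genes whose start faced a member the list was 0.836%, and of those facing a close peak 0.206%. These shares and those of the lists below were not tested. Each list was made from chosen gene symbols and is not complete, so its counts and shares cover listed genes only. Gaps had a median length of 4289.5 bp over members and 956.5 bp over close peaks. The shares over all genes do not allow for gap length. The product of ftt-2 binds phosphorylated DAF-16 and holds it in the cytoplasm. Its start faced members at 565, 779 and 3083 bp, with signals of 189, 108 and 155, and another lay 185 bp from its end with 106. The 565 bp member ranked 272 in replicate 1 and 195 in replicate 2, and the 779 bp member overlaps it and shares these ranks. The member beyond the daf-16 end, at 814 bp and signal 161, ranked 347 and 450. The transgene carries daf-16a sequence, and the labels do not say how far it extends. The pptr-1 member, by the gene of a phosphatase subunit acting on AKT-1, had 146 at 1424 bp from the start. The pdk-1 member, by a kinase gene upstream of AKT-1, had 104 at 1361 bp.

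Insulin-like peptide genes flanked 4 members and were 0.475% of the flanking genes, beside 0.196% of all genes. They were 0.279% of genes whose start faced a member and 0% of those facing a close peak. The ins-39 start faced a member at 635 bp, at chrX:1344940-1345169, with a signal of 288 and ranks of 44 and 36. This member is one of those with GCGCAGGG. The ins-13 member had 190.4 at 692 bp from the gene's end, and it lay 113 bp from a small RNA gene, just past the 100 bp limit. The ins-37 end was near 2 members of 104 and 84.8.

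The transcription factor list leaves out some families, such as that of mdl-1, which flanked 2 members. Listed transcription factor genes were 27 of the 632 flanking genes, 4.27%, where the list is 2.46% of all protein-coding genes. Of the 359 genes whose start faced a member they were 18, or 5.01%, beside 3.09% of the 485 facing a close peak. The intestinal GATA factor gene elt-2 had a member 1879 bp from its start, at chrX:10479151-10479570, with TGATAAG at the summit. Its signal was 121, and it ranked 500 in replicate 1 and 1630 in replicate 2. The nuclear receptor gene nhr-31 also had a TGATAAG member, at 2788 bp with 119. The forkhead gene fkh-9 had members at 5248 bp with 148 and at 2899 bp with 94.95, and the second held TGTTTAC. The touch neuron gene mec-3 had one at 1454 bp with 157, and ceh-60, a homeobox gene, one at 696 bp with 123.

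The lipid metabolism list did not hold cpt-1, named above. Its genes were 7 of the flanking genes, or 1.11% where the list is 0.624% of all genes, and stood beside 8 members. They were 1.39% of genes whose start faced a member and 1.24% of those facing a close peak. The dhs-8 start, of a short-chain dehydrogenase gene, lay 995 bp from a member of 235.2 that ranked 112 and 141. The acyl-CoA synthetase gene acs-6 had 2 overlapping members, at 1727 bp with 157 and at 1516 bp with 99.2, and the first held TGATAAG. The desaturase genes fat-1 and fat-2 had starts 1259 and 1193 bp from members of 99.2 and 95.3. The lipase-related gene lips-1 had its end 4945 bp from a member of 154. Of 30 DAF-16 targets raised in daf-2 mutants, 1 was a flanking gene, or 0.158% of these where the list makes up 0.151% of all genes. It was dod-6, 737 bp from a member of signal 103 that ranked 924 and 1568. These targets were 0.279% of genes whose start faced a member and 0.619% of those facing a close peak.

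The other lists were small. Heat shock and chaperone genes were 0.279% of genes whose start faced a member and 1.86% of those facing a close peak. In the same order, ribosomal protein genes were 0% and 2.47%, and histone genes 0% and 0.619%. Detoxification genes were 0.557% and 0.825%, and chemoreceptor genes 0.836% and 1.44%. Heat shock and chaperone genes were 3 (0.475% of flanking and 0.287% of all genes), with the 2 members nearest hsp-16.1 at 7146 and 8268 bp from its end and signals of 176 and 134. The hsp-25 start lay 2709 bp from a member of 98.0. Detoxification genes were 2 (0.316% of flanking and 0.931% of all genes), ugt-43 with 157 and ugt-50 with 98.2. Ribosomal protein genes were also 2 (0.316% and 0.408%), rps-2 with 93.5 and rps-27 with 88.1, both facing by their ends. Chemoreceptor genes were 6 of 632, 0.949% where they are 6.54% of genes, led by srw-39, srg-69 and srh-219 with 370.4, 179.9 and 166. C-type lectin genes were 4 (0.633% and 1.19%), all facing by their ends, the highest being clec-182 with 120.1. The collagen col-185, the neuropeptide gene nlp-40 and the lysozyme gene ilys-5 were alone in their lists with 105, 122 and 123, and histones had 0.

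Other non-coding RNA genes lay within 100 bp of 54 members, 14.6% with an interval from 11.2% to 18.6%. Such positions make up 8.11% of far space, and among close peaks the share was 12.2% (Fisher's exact test, two-sided, p = 0.370). The difference of 2.42 points between far and close peaks was 1.39 without replicate 1 and 0.130 without replicate 2. Nearly all were of the class the annotation calls ncRNA, with 49 members, of which 31 had the summit inside the gene. The class was within 100 bp of 13.2% of members and 11.2% of close peaks, and such positions make up 3.25% of far space. The highest ncRNA member lay between cysl-2 and dhs-8 at K10H10.11 with 235.2, followed by C10F3.15 with 209.9 and the 3 genes W06H8.12, W06H8.13 and W06H8.14 with 204. The median signal of ncRNA members was 109 and that of the others 112.

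Of the named RNA classes, lincRNA genes lay within 100 bp of 2 members (0.541%, where such positions make up 0.776% of far space) and microRNA genes of 2 (0.541% against 0.125%). With 2 members each, the exact interval runs from 0.0655% to 1.94%. The lincRNA genes linc-128 and linc-91 held summits of 246 and 147. The linc-128 member had 149.98 in replicate 1 and 103 in replicate 2, and lay 4768 bp from the start of cmd-1, the calmodulin gene. The microRNA genes mir-51 and mir-53 had members of 141 and 126 in the same 2418 bp gap between alh-3 and hrg-5, which face it with their ends. They ranked 583 and 505, and 1564 and 403. Genes of piRNAs, small RNAs of the germline, are dense in far space, where 3.98% lies within 100 bp of one, and 2 members (0.541%) were there, at 21ur-13200 and 21ur-12080. Their upstream motif CTGTTTCA was at 3 summits and 5 flanks (exact McNemar test, adjusted p = 0.727). Antisense and ribosomal RNA genes had 0, which allows up to 0.992% of members. Positions within 100 bp of them make up 0.0727% and 0.0429% of far space.

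The members nearest each limit had signals from 93.1 to 190.4. At 501 bp from a start lay the ubql-1 and F53C3.1 members, with 104 and 117, and at 514 bp the eel-1 member with 109. On the other side, dct-8, pmk-1 and ZK353.9 neighboured peaks at 498, 496 and 493 bp with 169.9, 111 and 199.7. At the small RNA limit the nearest members were 113, 113 and 125 bp away, with signals of 93.1, 190.4 and 129. Those left out were at 81, 81 and 76 bp with 144, 93.95 and 261.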

How the data were processed

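Peak lists on ce11 from 2 biological replicates of 1 group were used, and the ce10 lists were not. Per the submitters' README, each replicate list and the pooled list hold peaks and background, called from the alignments with 1 further shared file, and the optimal list was thresholded from them by the irreproducible discovery rate. For the aligner, the caller and the threshold, the sources used here give nothing. The authors deposited a signal per peak, of unstated scale, which served for ranks and descriptions inside each list, and a −log10 q-value, which was not used for ranking. The lists hold 28175 (replicate 1), 22676 (replicate 2), 30000 (pooled) and 1489 (optimal) entries, of which 25 optimal ones are mitochondrial and were left out. They hold no counts, so the depth is unknown, and intervals cover the counting of peaks only.

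Genes came from Ensembl release 115 and sequence from RefSeq, both WBcel235. No list had an entry past a chromosome's end in that assembly. Summits were classified by the rule given in the report, and each was paired with the nearest protein-coding gene on either side. Motifs were searched on both strands in windows reaching 50 bp to each side of a summit. Statistics were computed with scipy 1.17.1 on Python 3.11.15 (tables with pandas 2.3.3, arrays with numpy 2.4.6, plots with matplotlib 3.10.9) and were tested on simulated windows. A value under 0.05 after adjustment was taken as passing.

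The rule, gene lists, motifs and tests were chosen with earlier results of these data known. Genes named were those beside the 20 highest members, the members nearest each limit, farthest from a start or ranked most unlike in the replicates, the 3 highest members of each list, the 5 highest with TGATAAG, members with both elements, and members by microRNA, lincRNA, antisense or ribosomal RNA genes. Other named ones (pptr-1, pdk-1, elt-2, nhr-31, fkh-9, fat-1, fat-2, the lower members of ftt-2, acs-6 and ins-37, the holders of GCGCAGGG, the ncRNA and piRNA genes and those beside printed sequences) were chosen after their values were seen. Alternatives changed the distance limits, overlap, window, flank, list length, background and the motifs adjusted over, and left out each replicate by taking the other replicate's 1489 highest entries in place of the optimal list.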

Additional observations from a re-analysis of the deposited data

How the results depend on the processing

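Of 217 tested differences recomputed under alternatives, 182 kept their direction and side of the threshold, 7 lost and 10 gained a call, and 18 changed sign. Of 19 counts and shares with no test, 14 stayed within 1.5 times the count or within the exact interval of the share. The share of far peaks, 25.3%, was 32.4% with a 250 bp limit, 18.4% with 1000 bp and 21.3% (156 peaks) in the higher 732 entries, and without replicate 1 or 2 there were 356 or 345 members. With 2978 entries per replicate 93.2% of members were recovered in both. The far minus close recovery difference then became −0.0260 points, and −0.137 with an overlap of at least 0.5 of the peak. For TGTTTAC, summit minus flank was 2.97 points against the lower flank (exact p = 0.0191) and at 1000 bp (exact p = 0.0229), and 3.38 on autosomes only, an alternative chosen after seeing the data (exact p = 0.0337). Its far minus close difference became 0.0537 on autosomes. That of TGATAAG became −0.433 with windows reaching 25 bp and 8.48 with 100 bp. The cause of these changes was not tested. Reversed differences that passed no test, in points, were CTGTTTCA against flanks 0.270 and against lower-ranked entries 0.232 with 25 bp, TATTTAC against the lower flank 0.811 and without replicate 1 0.281 (−0.290 without replicate 2), and, far minus close, GACGCAG 0.3002 at 250 bp, 0.0572 with 25 bp, 0.00173 with 100 bp and 1.42 on autosomes, TATTTAC −0.588 and CACGTG −0.512 at 1000 bp, CACGTG −0.410 without replicate 1 (2.38 without replicate 2), and CTGTTTCA −0.201 with 100 bp and −0.0870 without replicate 2 (0.212 without replicate 1). No paired analysis was possible because there is 1 group. The unknown depth limits all shares to counts of peaks.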
